A study of Mus musculus with 20 samples.

Results

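The Toll-like receptors are a family of pattern recognition receptors. The transcripts described here are the 10 family genes Tlr1, Tlr2, Tlr3, Tlr4, Tlr5, Tlr6, Tlr7, Tlr8, Tlr9 and Tlr13, chosen by gene name from the 56748 genes that each of 2 bulk RNA-seq count tables lists. The rule is the gene name alone and uses no measured value. The first table holds 12 libraries labelled as bone marrow-derived macrophages (BMDM), from wildtype (WT) or iNOS knockout (KO) mice, grown in 20 ng/mL M-CSF, with 3 libraries in each of 4 groups. The second holds 8 libraries of RAW264.7 cells, a mouse macrophage-like line, either WT or Akr1a1 KO, with 2 libraries in each of 4 groups. In both, WT and KO cells were either left unstimulated or stimulated for 48 h with LPS at 50 ng/mL and recombinant mouse IFNγ, at 30 ng/mL in the libraries labelled BMDM and 10 ng/mL in RAW264.7 cells. iNOS, encoded by Nos2, is the enzyme that makes nitric oxide (NO•) in classically activated macrophages. Akr1a1 encodes an aldo-keto reductase that acts on S-nitroso-CoA.

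Several points limit these groups as models. The labels give C57BL/6J for both genotypes, whereas the methods of the study give C57BL/6J for WT and the separate strain B6.129P2-Nos2tm1Lau/J for iNOS KO, so that the loss of iNOS and any other difference between these strains cannot be told apart. The labels name the first 12 libraries BMDM, from mice of 6 to 12 weeks and of either sex, whereas the methods of the study place its RNA-seq of iNOS KO cells in RAW264.7 cells. Ddx3y, a Y-linked gene, had between 13.5 and 55.1 CPM (counts relative to the TMM-scaled library total) in those 12 libraries and 0 counts in all 8 RAW264.7 libraries. Mertk, a macrophage marker, did not part the unstimulated libraries in this way. It was at 0.050 to 0.352 CPM in unstimulated WT and 0 to 0.0995 CPM in unstimulated iNOS KO. All 8 RAW264.7 libraries lay at 0 to 0.134 CPM. The stimulated libraries labelled BMDM lay above all of these, at 5.12 to 6.59 CPM in WT and 0.865 to 0.955 CPM in iNOS KO. Which cells the 12 libraries came from was not tested. The libraries are therefore called "labelled BMDM" throughout. For BMDM the methods pool marrow by genotype, and for the RAW264.7 knockout they use clones sorted from single cells, so the spread between libraries may be that of cultures or clones rather than of mice. The unstimulated replicate B of each RAW264.7 genotype has a title that says stimulated, but its treatment entry and library name say unstimulated, and it was taken as unstimulated.

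Toll-like receptors recognise conserved molecules of microbes and pass the signal through the adaptors MyD88 and TRIF to NF-κB, MAP kinases and interferon regulatory factors. TLR1, TLR2, TLR4, TLR5 and TLR6 sit at the cell surface and bind lipoproteins, LPS and flagellin, while TLR3, TLR7, TLR8, TLR9 and TLR13 sense nucleic acids from inside endosomes. TLR4 with its partner MD-2 is the receptor for the LPS used as the stimulus here, and macrophages express most of the family.

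Depth was 15072109 to 18878107 counts per library in the libraries labelled BMDM and 11876719 to 44583327 in RAW264.7 cells. Nos2, the targeted gene, was at 10370 to 11533 CPM in the stimulated WT libraries and at 870 to 912 CPM in stimulated iNOS KO, so its transcript was lower but still read. Akr1a1 was at 427 to 675 CPM in WT RAW264.7 libraries, and in Akr1a1 KO at 206 and 21.8 CPM unstimulated and 370 and 212 CPM stimulated, and this transcript too was still read. Of 8 macrophage markers, 7 or 8 were above 3 counts in at least 1 library of every group, with Mertk the exception. The summed level of the macrophage markers was 7210 to 7563 CPM in unstimulated WT, 6581 to 7360 in stimulated WT, 4952 to 5245 in unstimulated iNOS KO and 9968 to 10408 CPM in stimulated iNOS KO, and thus moved with the groups. The 6 lymphocyte markers summed to at most 1.04 CPM in any library labelled BMDM. The 5 dendritic cell markers summed to 1.17 to 1.53 CPM in unstimulated WT and 5.87 to 6.03 CPM in stimulated WT. In iNOS KO their sum was 1.14 to 1.78 CPM unstimulated and 5.26 to 6.56 CPM stimulated. Of these, Zbtb46, Xcr1 and Ccr9 were above 3 counts in both stimulated groups, and Flt3 and Siglech in no group. Of 10 neutrophil markers 1 to 3 were above 3 counts. In the libraries labelled BMDM their sum went from at most 1.17 CPM unstimulated to 35.7 to 62.1 CPM stimulated. Those above 3 counts there were S100a8 in every group, Camp in both stimulated groups and Mpo in stimulated WT. S100a9, Ly6g and Elane were at 3 counts or fewer in every group. The 6 fibroblast markers summed to 3.65 to 4.92 CPM in stimulated WT and 11.3 to 16.6 CPM in stimulated iNOS KO. Unstimulated, they summed to at most 0.167 CPM in WT and 0.293 CPM in iNOS KO. Col1a1, Col1a2 and Col3a1 were at 3 counts or fewer. Dcn and Pdgfra were above 3 counts in both stimulated groups, Lum only in stimulated iNOS KO, and Pdgfra also in unstimulated iNOS KO. The part of these markers in the results was not tested. Replicate B of the stimulated iNOS KO group stood apart: its lowest correlation of log2 CPM with its own group was 0.976, against 0.9945 or more in the other 3 groups labelled BMDM. Its median deviation from its group was 0.078 log2 units in the shortest quintile of genes and -0.108 in the longest quintile, and the receptor values without it are given in the comparisons that hold its group. In bulk RNA, fewer cells of a type and less RNA per cell cannot be told apart.

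RefSeq promoters of the GRCm38.p6 build were matched for 8 of the 10 genes. The first lines below show the 250 bases upstream of the start site of 3 of the 4 receptor genes whose transcripts rose on stimulation in every genotype (Tlr3, Tlr6 and Tlr9), and the last shows Tlr2, which fell in 3 of 4. All run 5′ to 3′ on the gene's own strand, and capitals mark every match to the motifs searched on both strands: ISRE (GAAANNGAA), GAS (TTCNNNGAA), kappaB (GGANNTTCC), AP-1 (TGANTCA), PU.1 (GAGGAAGT) and ARE (TGACNNNGC).
Tlr3, minus strand, chr8:45410381-45410630: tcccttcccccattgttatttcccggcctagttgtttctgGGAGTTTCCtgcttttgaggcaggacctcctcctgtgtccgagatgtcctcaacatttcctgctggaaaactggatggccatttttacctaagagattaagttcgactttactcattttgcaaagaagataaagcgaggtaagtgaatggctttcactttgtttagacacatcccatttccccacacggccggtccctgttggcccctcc
Tlr6, minus strand, chr5:64959167-64959416: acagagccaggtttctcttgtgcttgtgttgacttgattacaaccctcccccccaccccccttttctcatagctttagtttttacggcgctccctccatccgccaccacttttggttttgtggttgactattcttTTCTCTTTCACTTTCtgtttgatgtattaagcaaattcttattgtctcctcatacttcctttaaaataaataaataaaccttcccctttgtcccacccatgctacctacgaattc
Tlr9, plus strand, chr9:106222348-106222597: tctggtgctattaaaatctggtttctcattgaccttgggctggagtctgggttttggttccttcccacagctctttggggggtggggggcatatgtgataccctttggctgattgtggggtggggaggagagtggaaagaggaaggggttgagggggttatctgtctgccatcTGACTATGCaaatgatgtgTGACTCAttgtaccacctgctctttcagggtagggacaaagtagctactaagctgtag
Tlr2, minus strand, chr3:83841609-83841858: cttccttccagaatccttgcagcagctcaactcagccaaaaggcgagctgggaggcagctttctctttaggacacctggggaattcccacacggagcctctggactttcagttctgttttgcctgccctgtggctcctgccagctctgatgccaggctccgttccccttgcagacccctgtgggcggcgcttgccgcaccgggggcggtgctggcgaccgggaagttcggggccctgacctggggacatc

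The capitals in Tlr3 are a kappaB match at -210 to -202 from the start site. Positions count from 0 at the first base after the 250 upstream. In Tlr6 they are 2 overlapping ISRE matches on the reverse strand, at -115 to -107 and -109 to -101, and a second window of Tlr6, not shown, holds 2 GAS matches at -3 to 5 and 7 to 15. In Tlr9 they are an ARE match at -77 to -69 and an AP-1 match at -58 to -52, and past the bases shown there is a PU.1 match at 10 to 17. The 4th, Tlr1, has 2 windows, with a GAS match at -228 to -220 in the first and a PU.1 match at -23 to -16 in the second. Tlr2 holds no match to the letters of the 6 motifs in this window, and neither do Tlr5 and Tlr13. Other forms of these sites were not searched for, and gggaattccc in the Tlr2 window does not match the kappaB letters used. The absence of a match thus does not show the absence of a site. The window of Tlr8 holds an ISRE match at -67 to -59 and a GAS match at -106 to -98. Such matches are common: of 32851 mouse promoters of 300 bases, 8.56% hold the ISRE letters, 8.3% GAS, 4.26% kappaB, 7.81% AP-1, 3.2% PU.1 and 12.4% ARE.

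In unstimulated WT cells labelled BMDM, Tlr2 was by far the most abundant receptor transcript. On the scale of CPM per kb of the deposited gene length, by which genes were compared, its level was 193 ± 5.84 (SD, n = 3). Tlr13, an endosomal receptor for bacterial ribosomal RNA, came next at 20.6 CPM per kb, before Tlr7 (17.3), Tlr4 (11.4), Tlr1 (3.99), Tlr9 (3.03), Tlr6 (2.97), Tlr3 (1.04) and Tlr8 (0.36). Only the neighbours Tlr9 and Tlr6 had overlapping ranges. These levels depend on the length used. By the longest GENCODE transcript Tlr4 was at 15.6 and Tlr7 at 18.2 CPM per kb in these libraries. Tlr5, the flagellin receptor, had 0 counts in all 20 libraries, which allows up to 0.236 CPM at 3 counts in the shallowest one, and it could not be tested. Tlr11 and Tlr12, mouse family genes outside the 10, were also untested for lack of counts. In unstimulated WT RAW264.7 cells the order was flatter, with Tlr2 at 46.9, Tlr13 at 38.7 and Tlr7 at 31.4 CPM per kb, and the ranges of Tlr2 and Tlr13 overlapped. Tlr8 had 71 counts in the 3 unstimulated WT libraries labelled BMDM but 7 counts over all 8 RAW264.7 libraries, under the minimum of 10, and was not tested there. Tlr1 and Tlr6, which each pair with TLR2, share near-identical sequence: stretches of 100 bases found in both made up 7.89% of those of Tlr1 and 7.09% of those of Tlr6, so part of their counts could be split between them. Tlr4 overlaps a lncRNA on its own strand that held 1217 counts against 11909 for Tlr4 in the libraries labelled BMDM.

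Stimulation of WT cells labelled BMDM raised 5 of the 9 receptor genes tested and lowered 1. In the quasi-likelihood test of edgeR, adjusted by Benjamini-Hochberg over all genes tested, 32.4% of all genes were higher and 28.5% were lower, so a change in itself was common. The median log2 fold change was 0.66 over the 9 receptor genes and 0.07 over all genes tested. The genes that rose were the surface receptors Tlr1 and Tlr6 and the endosomal receptors Tlr3, Tlr9 and Tlr13, and the gene that fell was Tlr2.

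Tlr2, the receptor for bacterial lipoproteins, was at 597, 562 and 583 CPM in the unstimulated WT libraries and at 276, 306 and 347 CPM in the stimulated ones. Every stimulated library lay below every unstimulated one, and the log2 fold change was -0.91 (SE 0.079, adjusted p = 2.37e-08). Its partner Tlr6 went from 10.7, 10.6 and 12.0 CPM to 45.0, 45.9 and 45.1 CPM, a log2 fold change of 2.03 (SE 0.103, adjusted p = 1.73e-11). Its other partner, Tlr1, rose less, from 13.3, 13.4 and 13.4 CPM to 21.3, 22.6 and 19.4 CPM (log2 fold change 0.66, SE 0.105, adjusted p = 3.53e-05). The receptor subunit and its 2 partners thus moved in opposite directions, and none of these 3 genes had overlapping groups. Tlr4, the LPS receptor, was at 64.8, 68.2 and 57.8 CPM unstimulated and 70.6, 56.5 and 57.3 CPM stimulated. These groups overlapped, and the log2 fold change of -0.05 (SE 0.189) did not pass the test (adjusted p = 0.839).

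Among the endosomal receptors, Tlr13 had the highest level after stimulation, at 59.3 CPM per kb. It went from 85.2, 96.7 and 84.6 CPM to 266, 258 and 242 CPM, with no overlap and a log2 fold change of 1.52 (SE 0.118, adjusted p = 4.95e-09). Tlr3, the receptor for double-stranded RNA, rose from 4.74, 6.84 and 4.70 CPM to 24.5, 22.4 and 22.3 CPM (log2 fold change 2.09, SE 0.217, adjusted p = 2.24e-07). Tlr9, the receptor for CpG DNA, rose from 9.72, 10.9 and 11.04 CPM to 28.1, 33.8 and 31.8 CPM (log2 fold change 1.57, SE 0.0972, adjusted p = 2.61e-10). For both genes all stimulated libraries lay above all unstimulated ones. Tlr7, a receptor for single-stranded RNA, was at 70.9, 70.8 and 70.7 CPM unstimulated and 69.8, 58.5 and 61.7 CPM stimulated. Its stimulated libraries were all slightly lower, but the log2 fold change of -0.16 (SE 0.177) did not pass (adjusted p = 0.454). Without replicate B of stimulated iNOS KO, which enters this comparison only through the shared spread, the same value passed, at an adjusted p of 0.0472. Tlr8, close kin of Tlr7, had only 22 to 33 counts per library in these groups, and its log2 fold change of 0.50 (SE 0.343) did not pass (adjusted p = 0.219).

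**Figure D1:**
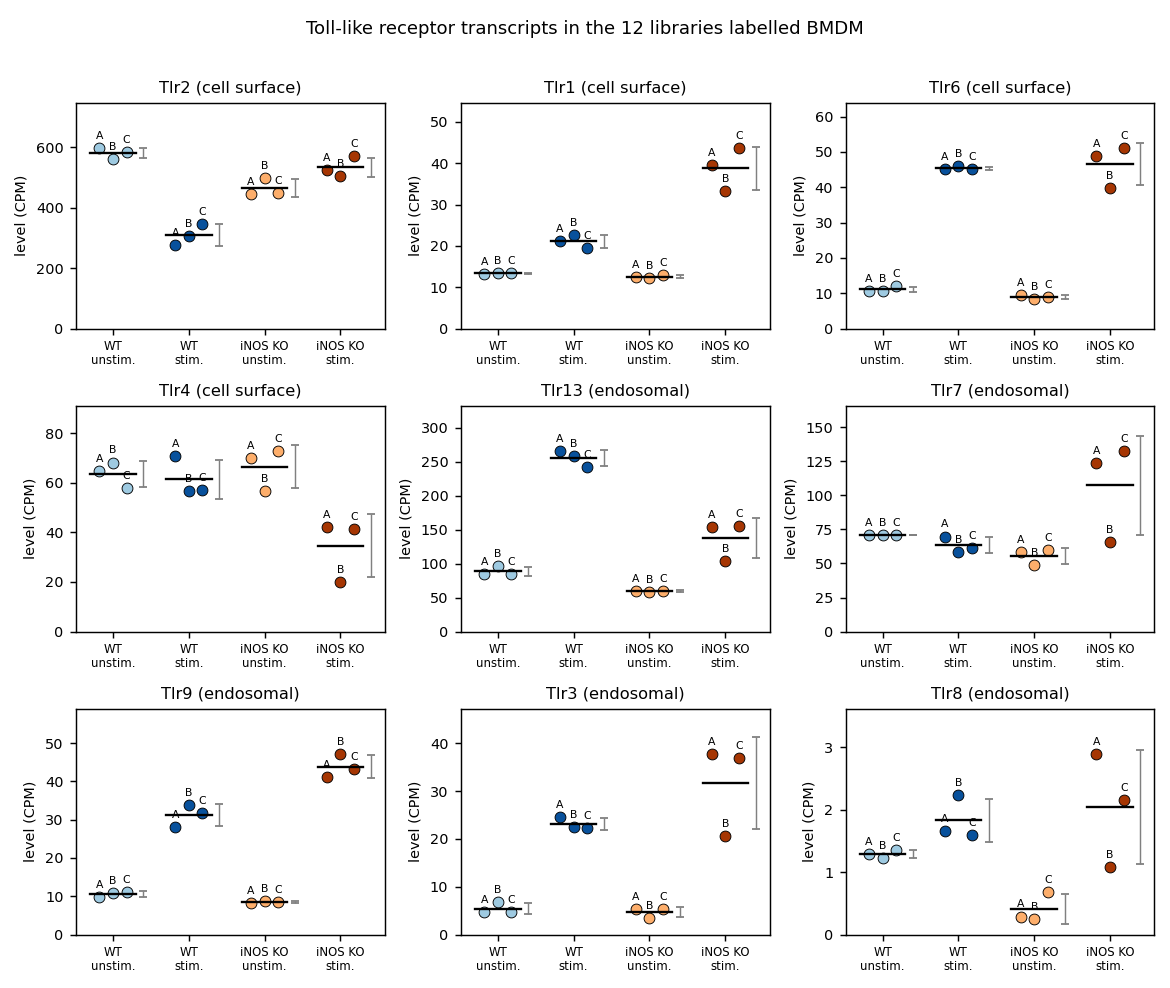
Level of each receptor transcript with counts (CPM, vertical axis from 0) in the 12 libraries labelled BMDM. Each point is 1 library with its replicate letter, black lines are group means, and grey bars to the right of each group are the SD of 3 libraries. Tlr2 is lower in the 3 stimulated WT libraries (276 to 347 CPM) than in any other library, and replicate B of stimulated iNOS KO is the lowest of its group in every panel except Tlr9.

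In iNOS KO cells labelled BMDM all 9 receptor genes tested passed the threshold on stimulation, 8 of them higher and 1 lower, against 27.3% of all genes higher and 24.6% lower. The median log2 fold change was 1.63 over the receptor genes and -0.00 over all genes. Tlr2 did not fall: it was at 444, 498 and 450 CPM unstimulated and 524, 506 and 569 CPM stimulated. The groups did not overlap, but the log2 fold change of 0.20 (SE 0.0782, adjusted p = 0.0417) lay close to the threshold. It missed it with DESeq2 (adjusted p = 0.0643) and with DESeq2's size factors (adjusted p = 0.0560), and when any of 8 of the 12 libraries was left out. Tlr4, by contrast, went from 69.9, 56.8 and 72.8 CPM to 42.2, 19.9 and 41.5 CPM, and was lower in every stimulated library (log2 fold change -0.94, SE 0.194, adjusted p = 0.000597). The lowest of these values came from replicate B, without which Tlr4 still fell by 0.67 on the log2 scale (adjusted p = 1.61e-06).

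Tlr7, which had not passed in WT, went from 58.2, 49.1 and 59.7 CPM to 124, 65.6 and 133 CPM in iNOS KO (log2 fold change 0.95, SE 0.176, adjusted p = 0.000226). All 3 stimulated libraries were higher, with replicate B close to the unstimulated ones. Without it the log2 fold change was 1.204. Tlr8 had 6, 5 and 14 counts in the unstimulated iNOS KO libraries and 45, 15 and 36 stimulated, or 0.289, 0.249 and 0.683 CPM against 2.89, 1.08 and 2.15 CPM. The groups did not overlap and the log2 fold change was 2.32 (SE 0.396, adjusted p = 0.000102), on counts that leave a wide error. Tlr1 rose from 12.4, 12.3 and 13.0 CPM to 39.5, 33.2 and 43.7 CPM (log2 fold change 1.63, SE 0.102, adjusted p = 5.88e-10). The other 4 genes rose by log2 fold changes of 2.76 (Tlr3), 2.39 (Tlr6), 2.37 (Tlr9) and 1.22 (Tlr13), and their groups did not overlap. Without replicate B the values were 1.73 for Tlr1, 0.24 for Tlr2, 2.99 for Tlr3, 2.49 for Tlr6, 2.60 for Tlr8, 2.32 for Tlr9 and 1.39 for Tlr13, and all of them passed.

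The interaction of iNOS KO and stimulation tested whether the response differed between the genotypes. It passed for 6 of 9 receptor genes, 5 with a more positive response in iNOS KO and 1 with a more negative one, against 20% and 15.4% of all genes. The differences in log2 fold change, iNOS KO minus WT, were 1.11 for Tlr2 (SE 0.111, adjusted p = 5.84e-07), 1.11 for Tlr7 (SE 0.249, adjusted p = 0.00201), 0.97 for Tlr1 (SE 0.146, adjusted p = 4.92e-05) and 0.80 for Tlr9 (SE 0.137, adjusted p = 0.000181). For Tlr8 the difference was 1.82 (SE 0.533, adjusted p = 0.0131). Tlr4 was the negative case, at -0.89 (SE 0.271, adjusted p = 0.0163), and its call was lost when replicate A of stimulated WT was left out (adjusted p = 0.0542). Tlr3 (0.67, adjusted p = 0.105), Tlr6 (0.35, adjusted p = 0.0721) and Tlr13 (-0.30, adjusted p = 0.176) did not pass. Without replicate B of stimulated iNOS KO 8 genes passed, Tlr3 at 0.90 and Tlr6 at 0.45 among them, while Tlr13 (-0.13) did not.

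Before stimulation, 3 receptor genes were lower in iNOS KO than in WT cells labelled BMDM and 0 were higher, against 4.09% of all genes lower and 1.88% higher. Tlr13 was at 59.8, 57.5 and 60.2 CPM in iNOS KO, below the 84.6 to 96.7 CPM of WT (log2 fold change -0.59, SE 0.118, adjusted p = 0.00495). Tlr2 was lower by a log2 fold change of -0.32 (SE 0.0781, adjusted p = 0.0183) and Tlr8 by -1.64 (SE 0.416, adjusted p = 0.0246), the latter from 25 counts in all 3 iNOS KO libraries against 71 in WT. The ranges of these 3 genes did not overlap. Only Tlr13 was called under every choice of libraries: the count was 1 without replicate A or C of unstimulated WT or replicate A of unstimulated iNOS KO, 2 without the remaining replicate of unstimulated WT or either of the other 2 of unstimulated iNOS KO, and 6 without replicate B of stimulated iNOS KO, when Tlr6, Tlr7 and Tlr9 were added as lower.

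After stimulation, 4 receptor genes were higher and 2 were lower in iNOS KO than in WT, against 24.2% of all genes higher and 24.2% lower, so the share of receptor genes was not far from that of all genes. None of the 6 passed the study's added limit of an absolute log2 fold change over 1, which 10.7% of all genes passed as higher and 8.87% as lower. Tlr1 was higher by 0.88 (SE 0.0998, adjusted p = 1.21e-06), Tlr2 by 0.78 (SE 0.0789, adjusted p = 3.07e-07), Tlr7 by 0.76 (SE 0.177, adjusted p = 0.00171) and Tlr9 by 0.49 (SE 0.0896, adjusted p = 0.000218) on the log2 scale. For Tlr1, Tlr2 and Tlr9 every iNOS KO library lay above every WT library, and without replicate B the values of these 3 were 0.98, 0.82 and 0.43. For Tlr7 replicate B, at 65.6 CPM, lay inside the WT range of 58.5 to 69.8 CPM, and without it the log2 fold change was 1.02.

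Tlr13 and Tlr4 were the genes that were lower in stimulated iNOS KO. Tlr13 was at 154, 103 and 156 CPM in iNOS KO against 266, 258 and 242 CPM in WT (log2 fold change -0.89, SE 0.116, adjusted p = 5.98e-06), and was thus lower in iNOS KO in both states. Tlr4 was at 42.2, 19.9 and 41.5 CPM in iNOS KO against 70.6, 56.5 and 57.3 CPM in WT (log2 fold change -0.82, SE 0.195, adjusted p = 0.00206). Neither gene had overlapping groups. Without replicate B the values were -0.72 for Tlr13 and -0.55 for Tlr4, both still past the threshold. Tlr3 (0.47, SE 0.190, adjusted p = 0.0527) passed without replicate B, at 0.69 (adjusted p = 1.39e-05), and without replicate B of either unstimulated group. Tlr6 (0.04, SE 0.0939) and Tlr8 (0.17, SE 0.328) did not pass, at adjusted p = 0.764 and 0.705, nor did they without replicate B, at 0.14 and 0.46.

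**Figure D2:**
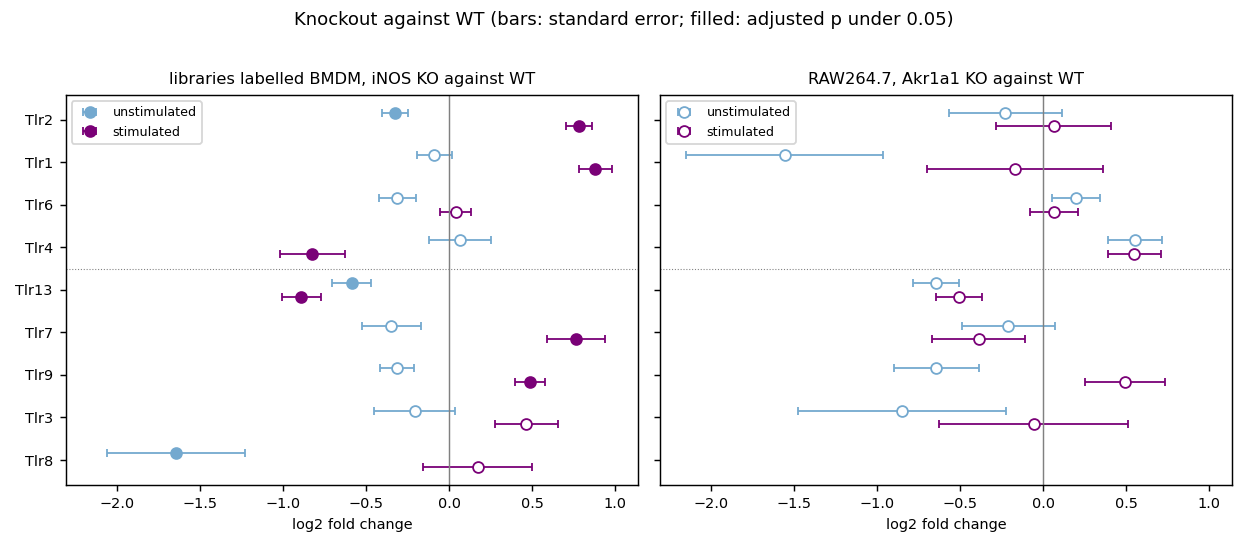
Log2 fold change of each receptor gene between KO and WT (horizontal axis), for iNOS KO in the libraries labelled BMDM on the left and Akr1a1 KO in RAW264.7 cells on the right. Points are estimates of edgeR's quasi-likelihood fit, bars are 1 standard error, filled points have an adjusted p under 0.05, and the dotted line parts surface (above) from endosomal receptors. Filled points stand on both sides of 0 in stimulated iNOS KO cells, and no point is filled for Akr1a1 KO.

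In RAW264.7 cells, stimulation of WT raised 4 of the 8 receptor genes tested (Tlr1, Tlr3, Tlr6 and Tlr9) and lowered Tlr2, against 18.5% of all genes higher and 19.2% lower. In Akr1a1 KO cells the same 5 genes passed in the same directions, against 19.8% and 19.4%. The median log2 fold change of the receptor genes was 1.03 in WT and 0.99 in Akr1a1 KO, and those of all genes were -0.03 and 0.02. Marker levels moved with these groups too. The summed macrophage markers were at 3952 to 4484 CPM in unstimulated and 9111 to 9954 CPM in stimulated WT, and at 2903 to 3161 and 3335 to 7008 CPM in Akr1a1 KO. The summed neutrophil markers went from at most 0.666 CPM unstimulated to 121 to 145 CPM in stimulated WT and 248 to 420.0 CPM in stimulated Akr1a1 KO. Those above 3 counts were S100a8 in every group, Camp in unstimulated WT, Mpo in both stimulated groups and Ltf in stimulated Akr1a1 KO. S100a9, Ly6g and Elane were again at 3 counts or fewer. The summed dendritic cell markers were at 4.69 to 4.79 CPM in unstimulated WT and 2.90 to 3.38 CPM in stimulated WT. In Akr1a1 KO they were at 1.73 to 2.30 CPM unstimulated and 6.78 to 7.17 CPM stimulated. The part of these markers in the receptor values was not tested.

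Tlr2 in RAW264.7 cells went from 87.4 and 195 CPM to 36.6 and 48.7 CPM in WT (log2 fold change -1.73, SE 0.352, adjusted p = 0.00512), and from 128 and 114 CPM to 52.1 and 37.2 CPM in Akr1a1 KO (-1.44, SE 0.350, adjusted p = 0.0117). Both stimulated groups lay below the unstimulated ones, although the 2 unstimulated WT libraries lay far from each other. In Akr1a1 KO the call was lost without the unstimulated replicate A (adjusted p = 0.0542) or the stimulated replicate B (adjusted p = 0.0839). Tlr6 rose from 17.7 and 20.0 CPM to 57.2 and 66.1 CPM in WT and from 19.7 and 23.3 CPM to 63.6 and 65.4 CPM in Akr1a1 KO, with close replicates. Its log2 fold changes were 1.71 (SE 0.148, adjusted p = 6.25e-05) and 1.58 (SE 0.148, adjusted p = 8.52e-05). Tlr9 rose from 14.5 and 8.23 CPM to 43.8 and 46.5 CPM in WT (2.01, SE 0.253, adjusted p = 0.000435) and from 7.70 and 6.68 CPM to 67.9 and 59.1 CPM in Akr1a1 KO (3.15, SE 0.266, adjusted p = 5.27e-05). The groups of both genes were well apart in both genotypes.

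Tlr1 and Tlr3 rose too, on unstimulated values that varied widely between replicates. Tlr1 was at 10.5 and 4.39 CPM unstimulated and 24.7 and 40.8 CPM stimulated in WT (2.17, SE 0.565, adjusted p = 0.0163), and at 1.10 and 3.51 CPM and 21.0 and 37.2 CPM in Akr1a1 KO (3.56, SE 0.612, adjusted p = 0.00207). The WT call of Tlr1 was lost without replicate B of unstimulated WT (adjusted p = 0.101) or of stimulated WT (adjusted p = 0.0657). Tlr3 was at 3.63 and 9.80 CPM unstimulated and 37.0 and 30.7 CPM stimulated in WT (2.28, SE 0.603, adjusted p = 0.0176), and at 6.60 and 1.57 CPM and 29.7 and 35.2 CPM in Akr1a1 KO (3.08, SE 0.644, adjusted p = 0.00562). Its WT call was lost without replicate A of unstimulated WT (adjusted p = 0.0832). All stimulated libraries lay above all unstimulated ones for both genes in both genotypes.

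Tlr13, Tlr4 and Tlr7 did not pass in RAW264.7 cells. Tlr13, which rose in both genotypes labelled BMDM, was at 169 and 165 CPM unstimulated and 219 and 178 CPM stimulated in WT, a log2 fold change of 0.25 (SE 0.138, adjusted p = 0.189). Without replicate B of stimulated WT that value was 0.45. In Akr1a1 KO the value of Tlr13 was 0.39 (SE 0.139), with an adjusted p of 0.0545. It passed with DESeq2 (adjusted p = 0.0288) and with DESeq2's size factors (adjusted p = 0.0439). With filterByExpr (adjusted p = 0.0299) and in a fit of only the groups compared (adjusted p = 0.0306) it passed too. Tlr4 had log2 fold changes of 0.36 in WT and 0.35 in Akr1a1 KO (adjusted p = 0.116 and 0.117). Tlr7 was at 136 and 120 CPM unstimulated against 129 and 65.1 CPM stimulated in WT, where the stimulated replicates lay further apart than the group means. Its log2 fold change was -0.40 in WT (SE 0.279, adjusted p = 0.3004) and passed with no filter on counts (-0.42, adjusted p = 0.0461). Without replicate B of stimulated WT it turned to 0.06, and without replicate A it was -0.92. In Akr1a1 KO the log2 fold change of Tlr7 was -0.58 (SE 0.281, adjusted p = 0.141). There it passed with no filter on counts (-0.59, adjusted p = 0.00235) and in a fit of only the groups compared (-0.56, adjusted p = 0.0150).

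**Figure D3:**
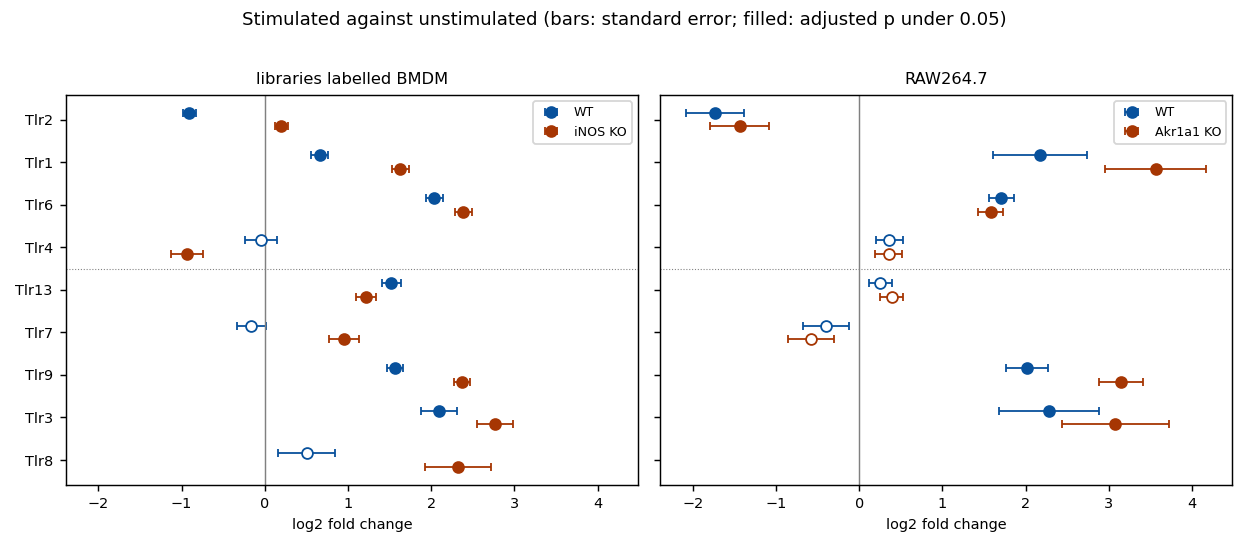
Log2 fold change of each receptor gene on stimulation (horizontal axis), in WT (blue) and KO (brown), for the libraries labelled BMDM on the left and RAW264.7 cells on the right. Points are estimates of edgeR's quasi-likelihood fit, bars are 1 standard error, filled points have an adjusted p under 0.05, and Tlr8 was not tested in RAW264.7 cells. Tlr3, Tlr6, Tlr9 and Tlr1 stand to the right of 0 in all 4 genotypes, and Tlr2 to the left in 3.

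Knockout of Akr1a1 gave 0 calls among the 8 receptor genes tested, unstimulated, stimulated or in the interaction. Few genes of any kind were called by edgeR's quasi-likelihood test: 0.23% of all genes were higher and 0.353% lower in unstimulated Akr1a1 KO, 0.0869% and 0.199% in stimulated Akr1a1 KO, and 0.00511% and 0.0153% in the interaction. At an unadjusted p under 0.05 there were 4, 2 and 1 receptor genes, DESeq2 called 1, 0 and 0, and edgeR with no filter on counts called 4, 1 and 2. The gene DESeq2 called was Tlr13, at 112 and 100 CPM in unstimulated Akr1a1 KO against 169 and 165 CPM in WT. Its log2 fold change was -0.65 unstimulated (SE 0.139, adjusted p = 0.134 by edgeR and 0.0143 by DESeq2) and -0.51 stimulated (SE 0.139, adjusted p = 0.237), with no overlap between the groups in either state. Tlr4 was higher by 0.55 in both states, with no overlap (SE 0.161 in each, adjusted p = 0.331 unstimulated and 0.270 stimulated). The interaction value of Tlr9 was 1.14 (SE 0.352), with an unadjusted p of 0.0117 and an adjusted p of 0.871. With 2 libraries per group the standard errors of the interaction ran from 0.196 (Tlr13) to 0.845 (Tlr3), and values that miss the threshold do not show that the genotypes responded alike. With no filter on counts the interaction passed for Tlr1 (1.39, adjusted p = 0.0165) and Tlr9 (1.14, adjusted p = 0.0158).

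**Figure D4:**
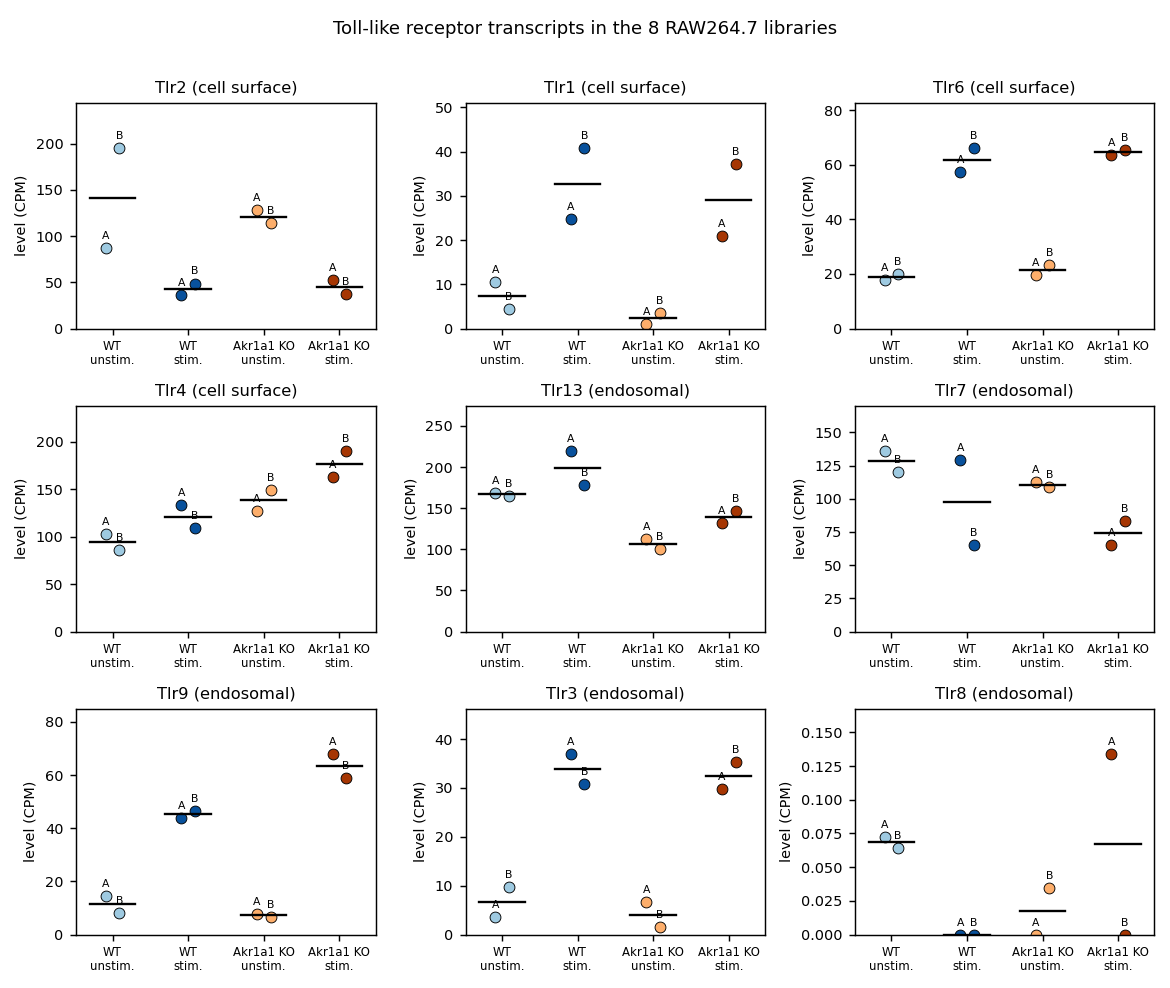
Level of each receptor transcript with counts (CPM, vertical axis from 0) in the 8 RAW264.7 libraries. Each point is 1 library with its replicate letter and black lines are means of 2 libraries. The stimulated libraries lie above the unstimulated ones for Tlr1, Tlr6, Tlr9 and Tlr3 and below them for Tlr2, and Tlr8 is at 3 counts or fewer in every library.

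The changes altered the make-up of the receptor transcripts. In CPM per kb, the surface receptors made up 82.2% to 84.0% of the summed receptor transcripts in unstimulated WT libraries labelled BMDM and 57.1% to 62.7% in stimulated ones. In iNOS KO the shares were 84.0% to 86.4% unstimulated and 70.6% to 76.8% stimulated, so the stimulated genotypes did not overlap. Tlr2 alone made up 74.5% to 76.8% in unstimulated WT and 42.7% to 50.4% in stimulated WT, against 59.5% to 67.1% in stimulated iNOS KO. Tlr13 made up 7.68% to 8.98% in unstimulated WT and 24.6% to 28.7% in stimulated WT. In unstimulated RAW264.7 cells the surface share was 41.7% and 54.7% in WT and 55.4% and 57.9% in Akr1a1 KO. After stimulation it was 36.5% and 46.2% in WT and 49.3% and 49.0% in Akr1a1 KO, and the WT values of the 2 states overlapped. A share falls when other members rise, so these values describe the mixture and were not tested. The shares also depend on the deposited gene lengths. By the longest GENCODE transcript, Tlr4 in stimulated Akr1a1 KO was at 43.3 rather than 31.8 CPM per kb.

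**Figure D5:**
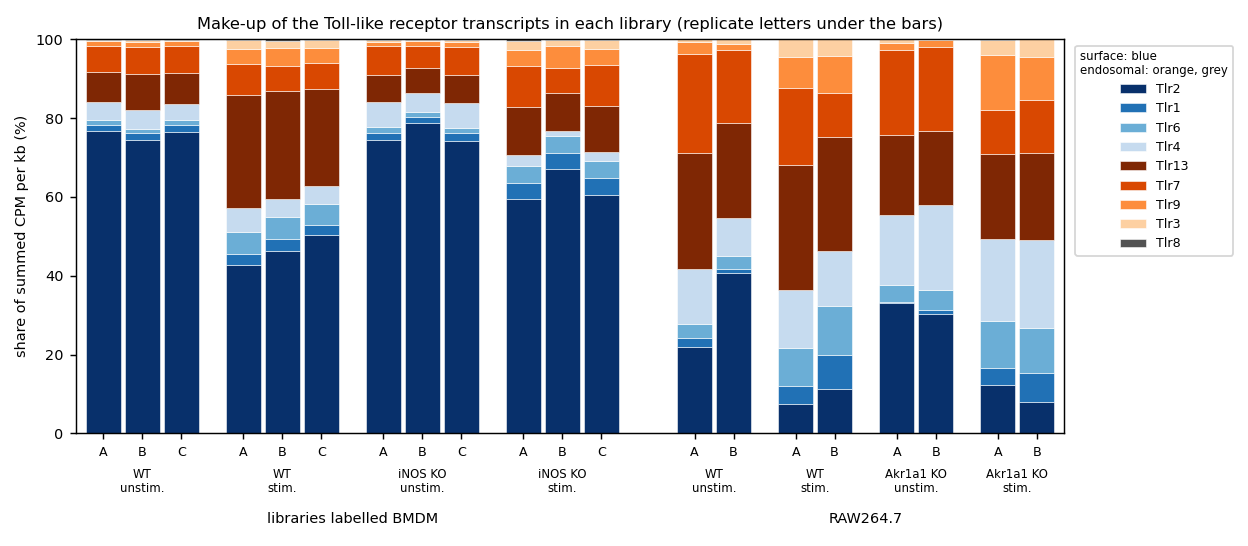
Make-up of the receptor transcripts in each of the 20 libraries, as the share (%, vertical axis from 0 to 100) of each gene in the summed CPM per kb. Blues are surface and oranges and grey are endosomal receptors, and letters are replicates. The Tlr2 share is lowest in stimulated RAW264.7 libraries (7.53% to 12.2%) and highest in unstimulated libraries labelled BMDM (74.3% to 78.7%).

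The proteins that work with the receptors were read from lists of accessory proteins, adaptors, negative regulators, transcription factors and endosomal proteases. On stimulation of WT cells labelled BMDM, 8 of 13 accessory protein genes tested were higher and 4 lower, 10 of 21 adaptors and proximal kinases higher and 7 lower, and 13 of 18 negative regulators higher and 2 lower. Among transcription factors that the receptors activate, 13 of 17 were higher and 2 lower, and 11 of 12 endosomal protease and acidification genes were higher with 0 lower. Among all genes 32.4% were higher and 28.5% lower, and the split of the adaptors was not far from that. The list medians of the log2 fold change were 0.59, 0.40, 1.23, 1.31 and 0.79 in that order, against 0.07 over all genes. Ly96, which encodes the TLR4 partner MD-2, rose by 2.13 and the LPS co-receptor Cd14 by 0.59 (adjusted p = 2.26e-07 and 1.52e-06), while Tlr4 itself did not pass. Of the adaptors, Ticam2 (TRAM) rose by 2.16, Ticam1 (TRIF) by 2.05 and Myd88 by 0.55, and Tirap (-0.08, adjusted p = 0.455) did not pass. Unc93b1, which carries the endosomal receptors from the endoplasmic reticulum, rose by 0.58 (adjusted p = 1.59e-06), and Hsp90b1, the chaperone that folds the receptors, fell by 1.80 on the log2 scale (adjusted p = 2.00e-08). The cathepsins Ctsl and Ctss, proteases that cut endosomal receptors, rose by 2.27 and 2.14. The largest rises in the other lists were those of Irf1 (7.34) and Irf7 (6.02), factors that act on interferon genes, and Socs1 (6.56), a suppressor of cytokine signalling.

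Between stimulated iNOS KO and WT cells labelled BMDM, the endosomal protease list was the most one-sided, with 10 of 12 genes lower and 0 higher and a median log2 fold change of -0.52, against 24.2% of all genes in either direction. Part of the difference was there before stimulation, when 6 of the 12 were lower and 0 higher, against 4.09% and 1.88% of all genes. The median was then -0.28. In the interaction 5 of the 12 had a more negative response in iNOS KO and 1 a more positive one, with a median of -0.31. Among all genes these shares were 15.4% and 20%. Ctss (-1.03, adjusted p = 2.15e-10) and Ctsk (-0.96, adjusted p = 8.88e-10) were lower in iNOS KO, as was Ctsh (-1.19, adjusted p = 0.0174), whose call was lost without any of 3 libraries. Accessory protein genes were split, with 4 of 13 higher and 5 lower: Hsp90b1 (1.40), Cd36 (0.89) and Cd14 (0.81) were higher and Ly96 (-0.74, adjusted p = 0.00609) was lower. The value of Ly96 was -0.46 without replicate B of stimulated iNOS KO, where it still passed, and it did not pass in a fit of only the groups compared (-0.67, adjusted p = 0.0565). Of 21 adaptors 5 were higher, among them Myd88 (0.48), and 9 were lower, among them Ticam1 (-0.43). Of 18 negative regulators 4 were higher, with Sigirr (3.22) and Il1rl1 (2.71), both members of the interleukin-1 receptor family, at the top, and 10 were lower. Of 17 transcription factors 6 were higher, Irf8 by 1.00, and 4 were lower, with Irf1 at -0.79. Without replicate B of stimulated iNOS KO 8 transcription factors were lower, and every other count of these 5 lists moved by at most 1. Without replicate A of that group 3 adaptors were higher.

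In RAW264.7 cells stimulation of WT gave 6 higher and 4 lower of 13 accessory genes, 10 and 4 of 21 adaptors, 12 and 2 of 18 negative regulators, 14 and 0 of 17 transcription factors and 6 and 1 of 12 endosomal protease genes, against 18.5% and 19.2% of all genes. Without replicate A of unstimulated WT 3 endosomal protease genes were higher, and without both unstimulated replicates B 1 adaptor was lower. With no filter on counts 2 endosomal protease genes and 1 transcription factor were lower, and 1 transcription factor was also lower with filterByExpr or without replicate A of stimulated WT. Ly96 (1.92), Cd14 (2.35), Ticam1 (2.75) and Myd88 (1.00) rose there as well. Ticam2 did not pass in RAW264.7 cells (0.00, adjusted p = 0.990), where Tirap rose (1.04, adjusted p = 0.00109). In stimulated Akr1a1 KO against WT, edgeR's quasi-likelihood test called 0 of the 81 genes of the 5 lists, and 11 had an unadjusted p under 0.05. DESeq2 called 1, an endosomal protease gene that was lower, edgeR with no filter called 4, and leaving out replicate A of unstimulated WT or replicate B of stimulated WT gave 1 each.

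Over the 8 group means of both experiments, each centred within its own experiment, the genes whose patterns were most like those of the receptors with the widest swings were sought among 8208 genes, by the root mean square difference in log2 CPM. For Tlr3 they were Irak3 (0.193), a negative regulator on the lists above, and Grap (0.200). For Tlr9 they were Rab20 (0.178) and Micall2 (0.203), and for Tlr1 they were Ccl9 (0.297) and Dusp6 (0.358). The points share libraries and the stimulation contrast, so the likeness is a description only.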

How the data were processed

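According to the study's methods and the submitters' processing notes, the authors filtered the reads of poly(A)-selected libraries, aligned them to mm10 with STAR and counted them per gene, and they deposited the counts as whole numbers without normalization. Whether counting used strand, and the annotation, are not given in the sources used here. Gene lengths deposited beside the counts were used for CPM per kb, and the length of the longest GENCODE transcript was tried as an alternative. The tables name no genome build, and their start and end matched GENCODE's GRCm38 annotation for 0 of the 10 members, so the only coordinates given are those of RefSeq promoters. A gene was tested where its counts summed to 10 or more over a table (18691 and 19569 genes). Library sizes were TMM-scaled (edgeR 4.0.16, R 4.3.3). The model of each table had a mean for every group and 1 spread shared by all of them. F tests were those of edgeR's quasi-likelihood method, 2-sided, with Benjamini-Hochberg adjustment and a threshold of 0.05. The SE is the log2 fold change over the square root of F. Named list genes are the 3 with the largest change among those called in each of 2 comparisons, plus 7 core genes (Cd14, Ly96, Myd88, Ticam1, Tirap, Ticam2 and Unc93b1). Membership follows gene names alone, but the family was picked for description, and the lists, markers and motifs were chosen, with earlier results of these data known. DESeq2 1.42.0, its size factors, 2 other filters, fits of only the groups compared, a replicate block and leaving out each library were tried as alternatives. Scripts were tested on simulated data, by the comparison of stimulated KO with WT. Of 100 planted 2-fold changes, 94 were recovered in the design labelled BMDM and 34 in that of RAW264.7 cells. A missed threshold for Akr1a1 KO thus does not show that a gene was unchanged. The limit of 3 counts given for a count of 0 covers counting error only. P-values measure the spread between these libraries, which may be technical.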

Additional observations from a re-analysis of the deposited data

Results flagged for a closer look

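The response to LPS/IFNγ differed between WT and iNOS KO cells labelled BMDM for 6 of the 9 receptor genes tested, by the interaction term of edgeR's quasi-likelihood test. The differences in log2 fold change, iNOS KO minus WT, were 1.11 for Tlr2 (adjusted p = 5.84e-07), -0.89 for Tlr4 (adjusted p = 0.0163), 1.82 for Tlr8 (adjusted p = 0.0131), 1.11 for Tlr7 (adjusted p = 0.00201), 0.97 for Tlr1 (adjusted p = 4.92e-05) and 0.80 for Tlr9 (adjusted p = 0.000181). Tlr8 had only 25 counts over the unstimulated iNOS KO libraries, and its log2 fold change between iNOS KO and WT was -1.64 there. Between stimulated iNOS KO and WT its value of 0.17 did not pass edgeR's test (adjusted p = 0.705). For Tlr2 the estimates had opposite signs, at -0.91 in WT and 0.20 in iNOS KO. The rise in iNOS KO lay close to the threshold (adjusted p = 0.0417). It missed it with DESeq2 (adjusted p = 0.0643) and when any of 8 of the 12 libraries was left out, so a rise is not established. Without replicate B of stimulated iNOS KO the differences were 1.14, -0.62, 2.10, 1.37, 1.07 and 0.75 in the same order, and all 6 still passed. Without replicate A of stimulated WT the call of Tlr4 was lost (adjusted p = 0.0542).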

How the results depend on the processing

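DESeq2, its size factors, filterByExpr, no filter, fits of only the groups compared and the replicate block kept the direction of every stimulation and iNOS value of a receptor gene. Replicate letters did not pair the libraries: deviations of same-letter libraries had correlations of -0.491 to 0.476 where the label was BMDM, and of -0.153 to 0.430 in RAW264.7 cells. With the replicate block the counts of receptor genes called stayed at 6, 9, 3, 6 and 6 in the libraries labelled BMDM and at 5, 5, 0, 0 and 0 in RAW264.7 cells. That block gives WT and KO libraries of the same letter a shared effect, so it is not a block by clone.

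The number called between unstimulated iNOS KO and WT ranged from 1 to 6 when single libraries were left out. With a limit of 1 on the absolute log2 fold change it was 1, that for stimulated cells 0 and that for the interaction 3. For Akr1a1 KO, no filter gave 4 calls unstimulated, 1 stimulated and 2 in the interaction, and DESeq2 gave 1 unstimulated. The cause was not tested.

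Values near 0 or with 2 libraries turned direction, and none of these had passed the test. Leaving out single libraries moved the value of stimulation in WT labelled BMDM from -0.16 to 0.0077 for Tlr4, and that of iNOS KO from -0.0048 to 0.17 for Tlr4 unstimulated and, stimulated, from -0.033 to 0.14 for Tlr6, -0.17 to 0.46 for Tlr8 and -0.0096 to 0.17 for Ticam2. In RAW264.7 cells stimulation of WT ranged from -0.92 to 0.065 for Tlr7 and from -0.10 to 0.20 for Ticam2, which was -0.018 with no filter. Unstimulated Akr1a1 KO ranged from -0.69 to 0.47 for Tlr2 and -2.14 to 0.080 for Tlr3, and was 0.55 and 0.86 without both unstimulated replicates B. Stimulated Akr1a1 KO ranged from -0.65 to 0.22 for Tlr1, -0.23 to 0.28 for Tlr2, -0.20 to 0.053 for Tlr3, -0.063 to 0.16 for Tlr6 and -0.82 to 0.16 for Tlr7. The Akr1a1 interaction ranged from -0.41 to 0.75 for Tlr2, -0.14 to 2.08 for Tlr3, -0.18 to 0.12 for Tlr4, -0.29 to 0.00082 for Tlr6, -0.64 to 0.34 for Tlr7 and -0.052 to 0.24 for Tlr13. Without both unstimulated replicates B it was -0.49 for Tlr2, -0.92 for Tlr3 and 0.25 for Tlr4, and for Tlr4 it was 0.0046 with filterByExpr and 0.0032 with no filter. A fit that leaves a RAW264.7 group with 1 library assumes that library to vary like the other groups. Depth limits Tlr8 and Tlr5.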
